A study of Saccharomyces cerevisiae and Saccharomyces cerevisiae S288C with 30 samples.

Results

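The introns described here are the 19 annotated introns of *Saccharomyces cerevisiae* that were 250 nt or longer and lay outside ribosomal protein genes. They were taken from a table of 405 splicing events, 279 of them annotated introns, by annotation, length and gene name. The rule itself used no measured value, but it was set with earlier results of these data known. The events of 14 further genes (ACT1, TUB3, TEF4, EFB1, ASC1, IMD4, NOG2, YRA1, DBP2, MTR2, APE2, BUD25, HRB1 and LSM2) were set apart by name, among them 12 annotated introns of 250 nt or more. For comparison, 156 annotated introns outside ribosomal protein genes were shorter than 250 nt, and 88 introns of ribosomal protein genes were as long as those described here.

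The study measured splicing by RNA-seq in 26 libraries, with 2 biological replicates in each of 13 groups. The TruSeq kit, which the table's column names mark as polyA, was used for dbr1_null, upf1_null and WT cells grown in YPD to an OD600 of 0.5 to 1. Ribo-Zero Gold subtraction of ribosomal RNA was used for dbr1, +rap and -rap cells of strain S288c, and for sk1 cells and cells after 0, 3, 6, 7.5, 8.5 and 12 h in sporulation medium, all of strain SK1. The labels give dbr1_null, upf1_null and dbr1 as single genotypes, do not spell out what "rap" is, and name no matched control for the Ribo-Zero dbr1 and sk1 groups. Both groups are set against -rap below. In those comparisons, an effect of genotype or strain and one of how the cultures were grown cannot be told apart. Branch points were mapped with Branch-seq, pooled from 3 gel fractions, and with 1 Lariat-seq library, both from lariat RNA cut from a 2D gel. The cultures for these assays were at an OD600 of 0.94 to 0.98.

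As background, most budding yeast introns are removed by the spliceosome as a lariat, a loop closed at the branch point by a 2′-5′ bond. The enzyme Dbr1 opens that bond, after which the intron is degraded, and in cells without Dbr1 lariats persist. A lariat has no poly(A) tail. Upf1 is the helicase of nonsense-mediated decay, which degrades transcripts with an early stop codon, including many that keep an intron. Long introns in this yeast are best known from ribosomal protein genes. The intron of HAC1 is a special case, since the endonuclease Ire1 and tRNA ligase remove it in the cytoplasm when unfolded proteins build up, without a spliceosome or a branch point.

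Retention was given as PSI, a share between 0.01 and 1 written with 2 decimals. PSI is not defined in the sources used here, and its values read as the share of transcripts that keep the intron, so that 1 means retained in all. The read counts behind PSI are unknown, and reads from an excised lariat and from an unspliced transcript cannot be told apart in it. Between 384 and 394 of the 405 events had a value in a TruSeq library and between 231 and 374 in a Ribo-Zero library, with the fewest at 8.5 h. Of the 19 introns, 13 had a value in all 26 libraries, and the intron with the fewest values had 19.

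The 19 introns ranged from 252 nt in HAC1 to 773 nt in YHL050C, with a median of 357 nt. Coordinates are those of sacCer3, and genes are as annotated by RefSeq. Nearest to the lower limit were HAC1 (chromosome VI, 75840 to 76091, plus strand) and an intron of 256 nt on chromosome IV (1507059 to 1507314, minus strand). Just below the limit lay introns of QCR9 with 213 nt and PFY1 with 209 nt, with a WT mean PSI of 0.315 and 0.115. HAC1, whose intron is removed without a spliceosome, had a WT mean of 1 and the chromosome IV intron one of 0.955. Of the next shorter introns, SEC27 had a WT mean of 0.135 and COI1 one of 0.995. Of the next longer ones, UBC13 had 0.175, MRK1 0.365, YLR464W 0.795 and YEL076C-A 0.975. Low and high WT means thus lay on both sides of the limit. Yeast introns usually lie close to the start of the gene. Of the 17 long introns inside an annotated gene, 6 (35.3%) began within 60 nt of the gene's start, against 103 of 155 short introns (66.5%) and 72 of 88 long introns of ribosomal protein genes (81.8%). HAC1's intron began 661 nt into the gene.

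By role, the 19 introns fell into 6 groups. Genes of signalling and gene control were GCR1, which encodes the transcriptional activator of glycolytic genes (751 nt, chromosome XVI, 412262 to 413012), HAC1, which encodes the transcription factor of the unfolded protein response, GLC7, the catalytic subunit of type 1 protein phosphatase (525 nt, chromosome V, 432672 to 433196), and MRK1, a kinase of the glycogen synthase kinase family (292 nt, chromosome IV, 314045 to 314336). Genes of RNA binding were MPT5, a PUF-family repressor of mRNAs (640 nt, chromosome VII, 167355 to 167994), STO1, the large subunit of the nuclear cap-binding complex (322 nt, chromosome XIII, 517564 to 517885), and PSP2, an RGG-motif protein that binds mRNA (362 nt, chromosome XIII, 236592 to 236953). A group for ubiquitin and the cell surface held UBC13, a ubiquitin-conjugating enzyme of DNA damage tolerance (chromosome IV, 629906 to 630173), and ECM33, a cell wall protein (330 nt, chromosome II, 393181 to 393510). YBR090C, YBR219C and YJR079W are uncharacterised. YEL076C-A, YLR464W, YJL225C, YIL177C and YHL050C lie in subtelomeric repeats. The last group held the chromosome IV intron and an intron of 347 nt on chromosome XV (912086 to 912432, minus strand), which lay in no annotated gene.

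Overlaps and repeats bear on some of these values. The introns of YJL225C and YIL177C, both 388 nt, differed by a median of 0 and at most by 0.02 in PSI over 26 libraries, and those of YEL076C-A and YLR464W, both 279 nt, by a median of 0.14 and at most by 0.30. Reads of such near-identical subtelomeric copies could have been split between them, so their values are uncertain one by one. The counts of introns below include both YJL225C and YIL177C, although their near-equal values are not separate evidence. The genes YBR090C, YBR219C and YJR079W each overlap a neighbour on the chromosome (NHP6B, YBR220C and BNA2), as do YEL076C-A and YLR464W (YEL076C and YRF1-4). How reads there were assigned is not given in the sources used here.

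In growing cells many of the long introns were retained or nearly so, and a smaller set was well removed. In WT cells 10 of 19 (52.6%) had a mean PSI of 0.9 or more, against 16 of 137 short introns (11.7%) with both values. Among long introns of ribosomal protein genes it was 0 of 88. The median of the means was 0.955 for the long introns described here, 0.345 for the short ones and 0.065 for the long ribosomal protein introns. The 10 were HAC1, GCR1, YBR219C, YJR079W, the introns on chromosomes IV and XV, and the subtelomeric YEL076C-A, YJL225C, YIL177C and YHL050C. Introns of the genes set apart by name are not in these shares. These are descriptions of the classes without a test, since introns of a library are not replicates.

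At the top in WT, HAC1 and YJR079W each had a PSI of 1 and 1, GCR1 had 0.99 and 1, and YHL050C had 1 and 0.99. At the bottom, GLC7 had 0.05 and 0.10 and STO1 had 0.08 and 0.15, followed by UBC13 with 0.17 and 0.18. These 3 introns were removed from most transcripts, and the ranges of GLC7 and STO1 overlapped. MRK1 (0.48 and 0.25) and PSP2 (0.18 and 0.55) differed widely between replicates. ECM33 with 0.66 and 0.61, MPT5 with 0.63 and 0.58, YBR090C with 0.71 and 0.76 and YLR464W with 0.78 and 0.81 lay between the extremes.

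The order was similar in -rap cells, the Ribo-Zero culture without "rap", though these differ from WT in library kit as well. HAC1 had 0.99 and 1 there, and YJR079W and YHL050C each had 0.99 and 0.99. PSP2 and GLC7 were the lowest, each with 0.14 and 0.13, and neither could be told from the other. Across the long introns PSI was not ordered by length: Spearman's rho with length was 0.22 in WT over 19 introns and 0.18 in -rap over 17, as descriptions over introns that share libraries.

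**Figure D1:**
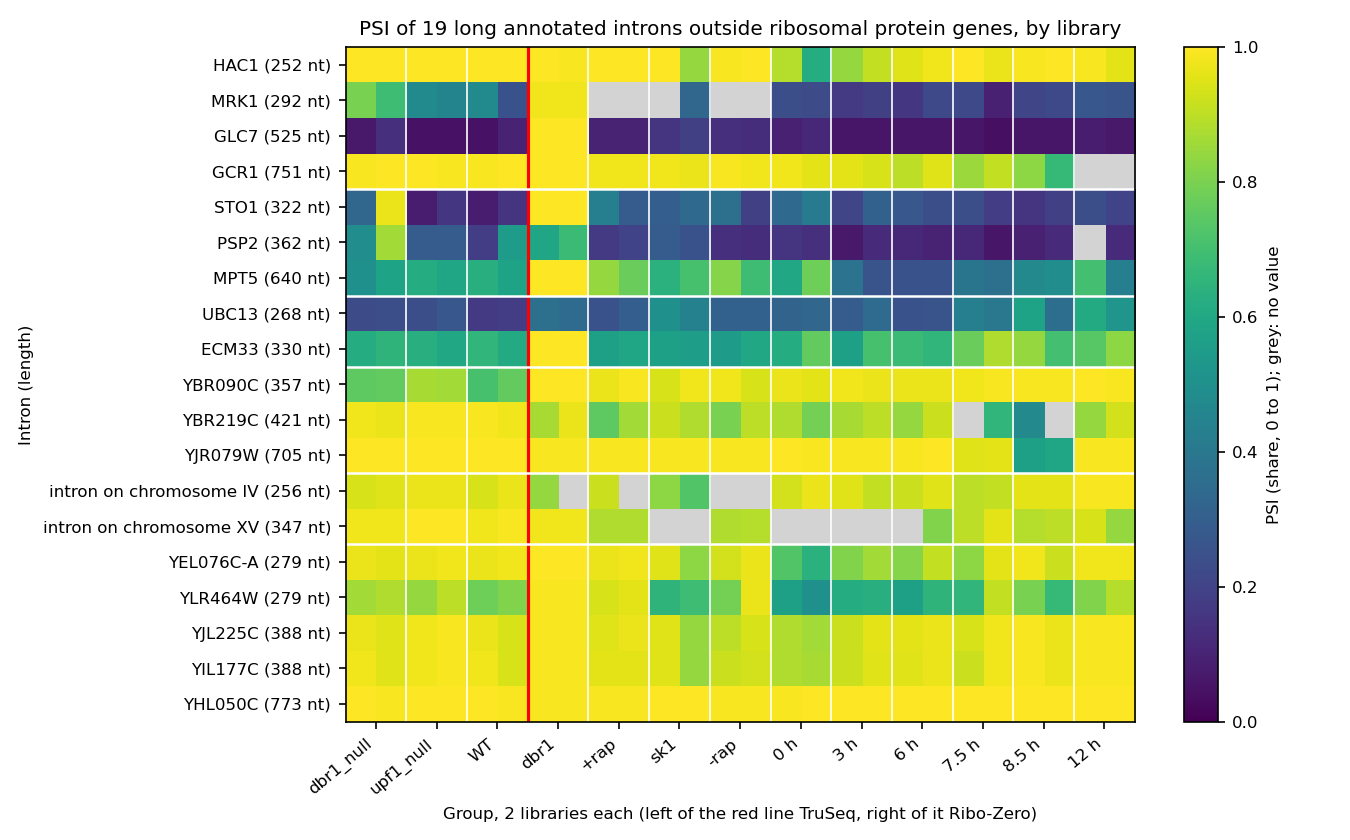
PSI of each of the 19 introns (rows, with length in nt, grouped by role) in each of 26 libraries (columns, 2 per group), from 0 in dark blue to 1 in yellow, with grey for no value. Only YHL050C stays at 0.99 or more in every library, and the GLC7, STO1, ECM33 and MPT5 rows, at 0.13 to 0.82 in -rap, turn yellow in the Ribo-Zero dbr1 columns, where all have a PSI of 1.

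In dbr1 cells measured by Ribo-Zero, some of the long introns that were partly or mostly removed in -rap cells read as fully retained. GLC7, STO1, ECM33 and MPT5 had a PSI of 1 in both dbr1 libraries, PSP2 was higher than in -rap but stopped short of 1, and UBC13 did not pass the test. Of 17 long introns tested, 12 rose and none fell. Over all 319 events tested in this comparison, 44.2% were called at an adjusted p under 0.05, 43.3% upwards, by limma's moderated test with Benjamini-Hochberg adjustment. Among short introns outside ribosomal protein genes 9 of 84 rose and 1 fell, and among long introns of ribosomal protein genes 86 of 88 rose.

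GLC7 had a PSI of 1 and 1 in dbr1, against 0.14 and 0.13 in -rap. The 2 groups were far apart and the replicates of each agreed within 0.01. The mean was 0.865 higher in dbr1, or 9.25 ± 0.23 (SE) on the log2 odds scale (adjusted p = 6.89e-12 by limma). Log2 odds are log2((PSI + 0.01)/(1 − PSI + 0.01)), so near 0 or 1 their size is set by the offset and by the 2 decimals of the file.

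STO1 had 1 and 1 in dbr1, against 0.37 and 0.19 in -rap. All dbr1 values lay above all -rap values, and the -rap replicates were not close to each other. The difference was 0.72 (log2 odds 8.05 ± 0.43 SE, adjusted p = 4.12e-09 by limma).

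ECM33 had 1 and 1 in dbr1, against 0.55 and 0.60 in -rap. MPT5 had 1 and 1 in dbr1, against 0.82 and 0.69 in -rap. Neither pair of groups overlapped, and in both introns the dbr1 value was the ceiling of PSI. The differences were 0.425 for ECM33 (adjusted p = 8.05e-08 by limma) and 0.245 for MPT5 (adjusted p = 2.09e-06).

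PSP2 had 0.59 and 0.68 in dbr1, against 0.14 and 0.13 in -rap. The groups did not overlap, and dbr1 stayed well under the ceiling. The difference was 0.50 (log2 odds 3.38 ± 0.35 SE, adjusted p = 3.12e-06 by limma). These 5 introns were called under all 11 alternative settings, with adjusted p at most 0.033 (MPT5).

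UBC13 had 0.37 and 0.35 in dbr1, against 0.31 and 0.31 in -rap. The dbr1 values were the higher ones without overlap, but the difference of 0.05 did not pass the test (log2 odds 0.32 ± 0.35 SE, adjusted p = 0.572 by limma). UBC13 was one of 2 long introns whose dbr1 mean stayed under 0.9, with PSP2, and 16 of 18 (88.9%) with both values reached it. MRK1 had 0.98 and 0.98 in dbr1 and no value in -rap, so it was not tested, and neither was the chromosome IV intron.

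The other 7 called introns had -rap means between 0.88 and 0.985. YBR090C had 1 and 1 in dbr1, against 0.98 and 0.94 in -rap (adjusted p = 0.00266 by limma). The chromosome XV intron had 0.98 and 0.98 in dbr1, against 0.88 and 0.89 in -rap (adjusted p = 0.00637). GCR1 had 1 and 1 in dbr1, against 0.99 and 0.98 in -rap (adjusted p = 0.0425). None of these introns had overlapping groups, and the difference was 0.095 on chromosome XV, 0.04 in YBR090C and 0.015 in GCR1.

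The remaining 4 were subtelomeric. YEL076C-A, YLR464W, YJL225C and YIL177C had 0.99 to 1 in dbr1, against 0.79 to 0.97 in -rap, with differences of 0.05 (adjusted p = 0.0125 by limma), 0.11 (0.0258), 0.07 (0.00541) and 0.065 (0.00661). Some of these calls rest on 1 library. Without -rap replicate 1 the adjusted p was 0.117 for YEL076C-A, 0.342 for YLR464W and 0.0562 for YJL225C. GCR1's call was lost without any 1 of the 4 libraries, at 0.0521 to 0.241, and those of YEL076C-A and YLR464W also without dbr1 replicate 1 (0.0596 and 0.0987) or 2 (0.0671 and 0.109). When PSI itself was tested, without log odds, only GLC7, STO1, ECM33, MPT5 and PSP2 were called.

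HAC1, the intron removed without a lariat, had 1 and 0.99 in dbr1, against 0.99 and 1 in -rap. The groups coincided at the ceiling of PSI, where no rise could be seen. YJR079W and YHL050C were at 0.99 in all 4 libraries. YBR219C had 0.87 and 0.97 in dbr1, against 0.80 and 0.90 in -rap, with overlapping groups (adjusted p = 0.257 by limma).

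Introns with a -rap mean under 0.9 had room to rise. Of 9 such long introns, the median was 0.99 in dbr1, against 0.575 in -rap. Of 71 such short introns the median was 0.395 in dbr1, against 0.345 in -rap. A dbr1 mean of 0.95 or more was reached by 6 of the 9 long introns and by 2 of the 71 short ones, with 7 and 9 called. The short introns nearest the limit rose as well: QCR9 averaged 1 in dbr1, against 0.455 in -rap, PFY1 0.575, against 0.085, and SEC27, of 200 nt, 0.455, against 0.15. Long introns of ribosomal protein genes reached it in 64 of 85 cases, with a median of 0.985 in dbr1, against 0.08 in -rap. These are counts without a test of the difference between classes. Within the 17 long introns, Spearman's rho of the difference with length was -0.13, a description. In -rap 8 of the 17 had a mean of 0.9 or more and little room to rise, among them the longest, GCR1, YJR079W and YHL050C. This rho therefore cannot decide whether the difference follows length.

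**Figure D2:**
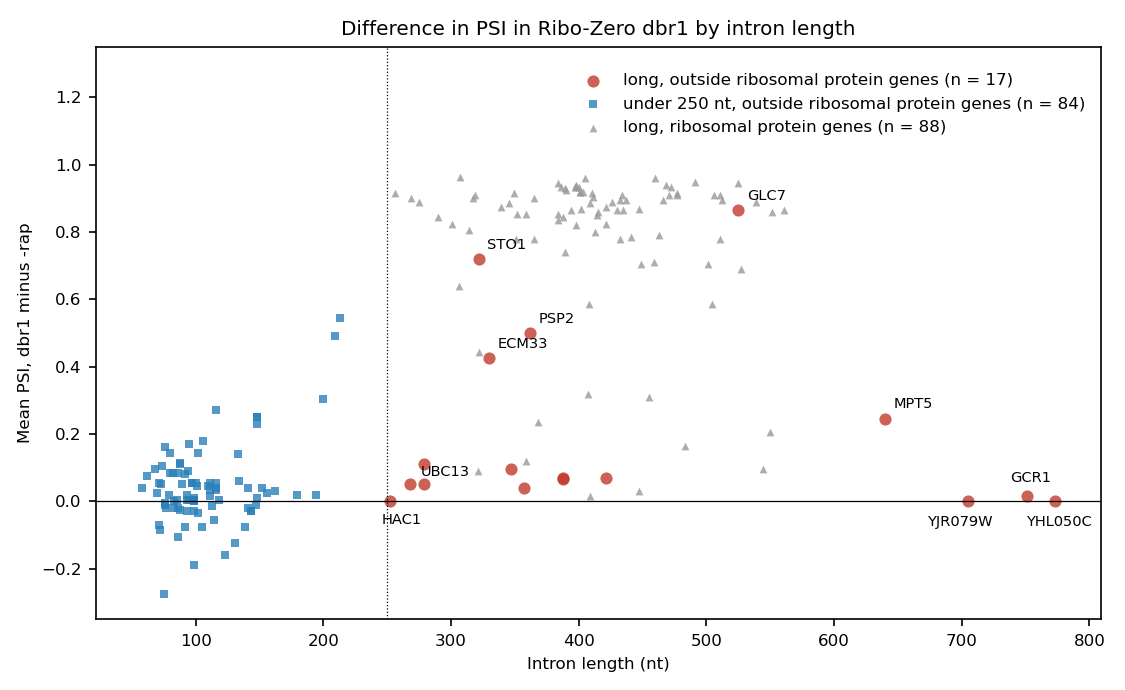
Difference in mean PSI, dbr1 minus -rap (vertical), by intron length in nt (horizontal), for long introns outside ribosomal protein genes (red circles, n = 17), introns under 250 nt outside ribosomal protein genes (blue squares, n = 84) and long introns of ribosomal protein genes (grey triangles, n = 88), with a dotted line at 250 nt. GLC7 (0.865) and STO1 (0.72) lie among the ribosomal protein introns. The longest introns, GCR1, YJR079W and YHL050C, lie within 0.015 of 0. Their -rap means of 0.985, 0.99 and 0.99 left almost no room to rise.

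In the TruSeq libraries no long intron passed the test in dbr1_null cells. In dbr1_null against WT 0 of 19 long introns were called by limma, where 2.65% of 377 events were called, and 2 had an unadjusted p under 0.05 (UBC13 and MRK1). The median difference was 0 over the long introns and 0.02 over all events tested. In WT 10 of 19 long introns had a mean of 0.9 or more and so little room to rise. Whether the dbr1 effect differed between the 2 library kits was not tested, and the kits differ in their control cultures as well.

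GLC7 had 0.07 and 0.14 in dbr1_null, against 0.05 and 0.10 in WT. ECM33 had 0.62 and 0.65 in dbr1_null, against 0.66 and 0.61 in WT. MPT5 had 0.50 and 0.58 in dbr1_null, against 0.63 and 0.58 in WT. In these 3 introns, all at 1 in the Ribo-Zero dbr1 libraries, the groups overlapped or touched, with differences of 0.03, 0 and -0.065 (adjusted p = 0.709, 1 and 0.425 by limma).

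The widest differences came with wide replicates. STO1 had 0.33 and 0.97 in dbr1_null, against 0.08 and 0.15 in WT, so that dbr1_null was above WT in both replicates while they were 0.64 apart (difference 0.535, adjusted p = 0.351 by limma). MRK1 had 0.80 and 0.69 in dbr1_null, against 0.48 and 0.25 in WT, without overlap (difference 0.38, adjusted p = 0.162). PSP2 had 0.49 and 0.86 in dbr1_null, against 0.18 and 0.55 in WT, with overlap (difference 0.31, adjusted p = 0.449). Replicate 2 was the higher one for STO1 and PSP2 in both groups. UBC13 had 0.23 and 0.24 in dbr1_null, against 0.17 and 0.18 in WT, a small difference of 0.06 with close replicates (adjusted p = 0.114).

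GCR1, at 0.99 and 1 in both groups, and HAC1, at 1 in all 4 libraries, gave no difference. With WT replicate 1 left out, 1 long intron was called, that on chromosome XV, at 0.98 in both dbr1_null libraries and 0.99 in the remaining WT library.

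**Figure D3:**
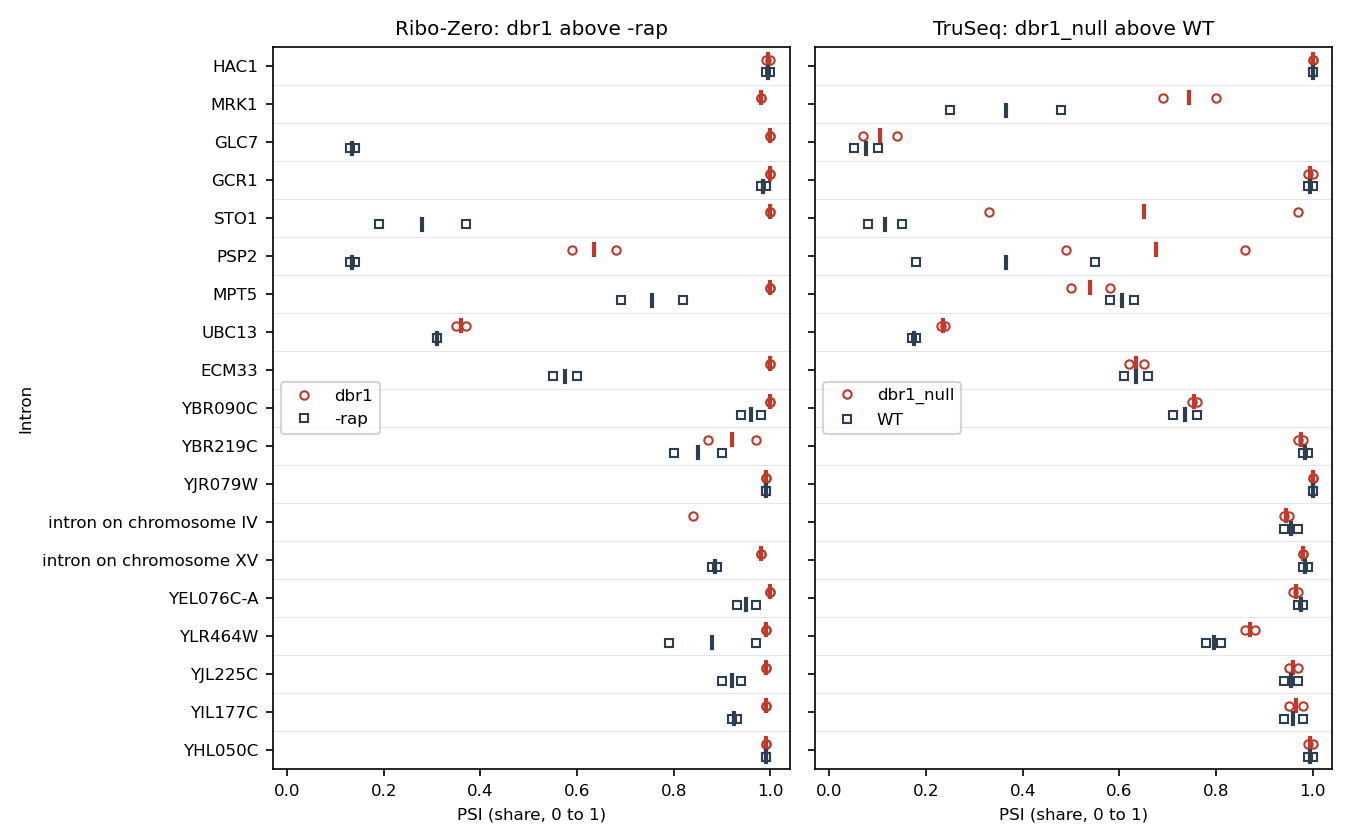
PSI (horizontal, 0 to 1) of each intron in the 2 Ribo-Zero dbr1 libraries above the 2 -rap libraries (left) and in the 2 TruSeq dbr1_null libraries above the 2 WT libraries (right), with the mean of each pair as a vertical bar. GLC7, STO1, ECM33 and MPT5 stand at 1 in Ribo-Zero dbr1, against means of 0.135, 0.28, 0.575 and 0.755 in -rap, while in TruSeq GLC7, ECM33 and MPT5 lie beside their WT values.

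In upf1_null cells 3 of 19 long introns rose against WT and none fell, by limma's moderated test, where 12.8% of 382 events were called, 11.8% upwards. The share among the long introns, 15.8%, was near that background. The 3 were in YBR090C, UBC13 and on chromosome XV. The median difference was 0.005 over the long introns, 0.05 over 137 short ones and 0.025 over all events tested. In WT 10 of 19 long introns had a mean of 0.9 or more and little room to rise, against 11.7% of short ones. These medians therefore cannot be read as a weaker response of long introns.

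YBR090C had 0.87 and 0.86 in upf1_null, against 0.71 and 0.76 in WT. UBC13 had 0.24 and 0.27 in upf1_null, against 0.17 and 0.18 in WT. The chromosome XV intron had 1 and 1 in upf1_null, against 0.98 and 0.99 in WT. None of the 3 had overlapping groups, and the differences were 0.13 (adjusted p = 0.038), 0.08 (0.045) and 0.015 (0.0496). These calls were not stable. Without upf1_null replicate 1 or 2, the adjusted p was 0.166 or 0.159 for YBR090C, 0.0669 or 0.118 for UBC13 and 0.211 or 0.22 for the chromosome XV intron. UBC13 also missed the threshold without WT replicate 1 (0.121) or 2 (0.14), and all 3 did in a fit of the upf1_null and WT libraries alone and with PSI in place of log odds.

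The other long introns showed no call in upf1_null. MRK1 had the second largest difference, 0.10, with 0.48 and 0.45 in upf1_null, against 0.48 and 0.25 in WT (adjusted p = 0.574 by limma). GLC7 had 0.05 and 0.05 in upf1_null, against 0.05 and 0.10 in WT. MPT5 had 0.62 and 0.59 in upf1_null, against 0.63 and 0.58 in WT, and ECM33 had 0.63 and 0.60, against 0.66 and 0.61. In all 4 of these introns the groups overlapped or touched. HAC1 was at 1 and GCR1 at 0.99 to 1 in every library of both groups.

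Set directly against dbr1_null, upf1_null had 0 of 19 long introns called by limma, where 3.95% of 380 events were called, and 2 had an unadjusted p under 0.05. The differences furthest from 0 were those of STO1 at -0.53 (adjusted p = 0.408), PSP2 at -0.385 (0.467) and MRK1 at -0.28 (0.275). STO1 had 0.08 and 0.16 in upf1_null, PSP2 had 0.29 and 0.29, and MRK1 had 0.48 and 0.45, each below both dbr1_null values given above. GLC7 differed by -0.055, MPT5 by 0.065, ECM33 by -0.02 and HAC1 and GCR1 by 0.

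The +rap cells gave no call among the long introns. In +rap against -rap 0 of 17 were called by limma, and none had an unadjusted p under 0.05, where 21.2% of 306 events were called. Among long introns of ribosomal protein genes 46 of 88 rose, and their median difference was 0.1575, against 0.005 for the long introns outside these genes and 0.0075 over all events tested. In -rap the median of the means was 0.0825 for the ribosomal protein introns and 0.885 for the long introns outside these genes. The latter thus had less room to rise, and the difference between classes was not tested.

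STO1 had 0.43 and 0.29 in +rap, against 0.37 and 0.19 in -rap, and MPT5 had 0.84 and 0.77, against 0.82 and 0.69. YLR464W had 0.94 and 0.96 in +rap, against 0.79 and 0.97 in -rap. In all 3 the groups overlapped, with differences of 0.08 (adjusted p = 0.414 by limma), 0.05 (0.725) and 0.07 (0.607), the widest among the long introns in either direction together with PSP2. PSP2 had 0.17 and 0.20 in +rap, against 0.14 and 0.13 in -rap (difference 0.05, adjusted p = 0.372). GLC7 had 0.10 and 0.10 in +rap, against 0.14 and 0.13 in -rap, lower without overlap by 0.035 (adjusted p = 0.19). ECM33, GCR1 and HAC1 differed by 0.005 or less.

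Between strain SK1 in growth and S288c, no long intron passed the test. In sk1 against -rap 0 of 16 were called by limma, where 2.04% of 294 events were called, and 4 had an unadjusted p under 0.05. With so few calls over all events, the count cannot show whether the strains were alike at the long introns. YLR464W had 0.65 and 0.69 in sk1, against 0.79 and 0.97 in -rap, a difference of -0.21 without overlap (adjusted p = 0.209). UBC13 had 0.50 and 0.44 in sk1, against 0.31 and 0.31 in -rap (difference 0.16, adjusted p = 0.223). PSP2 had 0.29 and 0.25 in sk1, against 0.14 and 0.13 in -rap (difference 0.135, adjusted p = 0.104). In these introns the sk1 values were all below or all above those of -rap. Without -rap replicate 1, YLR464W passed at an adjusted p of 0.0265.

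HAC1 had 1 and 0.84 in sk1, against 0.99 and 1 in -rap, so that 1 sk1 library stood below the other 3 (adjusted p = 0.716 by limma). GLC7 had 0.15 and 0.19 in sk1, against 0.14 and 0.13 in -rap. MPT5 had 0.64 and 0.71 in sk1, against 0.82 and 0.69 in -rap. GLC7 was slightly the higher and MPT5 overlapped, and neither was called (adjusted p = 0.716 and 0.737). GCR1 and ECM33 each differed by -0.01.

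At 0 h in sporulation medium, labelled t=0, 3 of 17 long introns were called against sk1 by limma, 1 upwards and 2 downwards, where 36.9% of 293 events were called, 28.3% upwards and 8.53% downwards. The share of long introns, 17.6%, was under that background. The chromosome IV intron had 0.93 and 0.97 at t=0, against 0.83 and 0.73 in sk1 (difference 0.17, adjusted p = 0.00522). GLC7 had 0.09 and 0.11 at t=0, against 0.15 and 0.19 in sk1 (difference -0.07, adjusted p = 0.0148). PSP2 had 0.15 and 0.14 at t=0, against 0.29 and 0.25 in sk1 (difference -0.125, adjusted p = 0.0308). None of these groups overlapped. PSP2's call was lost without any 1 of the 4 libraries (adjusted p 0.0751 to 0.144), and GLC7's without sk1 replicate 2 (0.0957) or t=0 replicate 1 (0.0702).

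Values of HAC1 and YEL076C-A lay lower at t=0 without passing the test. HAC1 had 0.89 and 0.62 at t=0, against 1 and 0.84 in sk1 (difference -0.165, adjusted p = 0.106 by limma). YEL076C-A had 0.73 and 0.64 at t=0, against 0.95 and 0.83 in sk1 (difference -0.205, adjusted p = 0.0563). HAC1's groups overlapped and YEL076C-A's did not. Without sk1 replicate 2 both passed, HAC1 at an adjusted p of 0.0159 and YEL076C-A at 0.0437. MPT5 and ECM33 lay 0.015 and 0.125 higher at t=0 and GCR1 0.005 lower, none called.

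During sporulation the long introns moved in different directions. Over the 6 times, limma's F-test called 8 of 15 with all values (53.3%), where 56% of 159 events were called: YJR079W, UBC13, MPT5, YEL076C-A, YJL225C, the chromosome IV intron, YIL177C and GLC7. HAC1 just missed (adjusted p = 0.0503). The calls of YJR079W, UBC13, MPT5 and YEL076C-A held under all 18 alternatives. GLC7 and YJL225C lost theirs without t=0 replicate 2 (adjusted p = 0.0676 and 0.0517) and the chromosome IV intron without t=12 replicate 1 or 2 (0.0588 and 0.0568). The comparisons with t=0 below share the t=0 libraries, so they are not independent of each other.

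The intron of MPT5, whose product represses mRNAs, was retained less at 3, 6 and 7.5 h than at 0 h. Its PSI was 0.60 and 0.78 at 0 h, 0.38 and 0.26 at 3 h, 0.25 and 0.25 at 6 h, 0.39 and 0.37 at 7.5 h, 0.47 and 0.49 at 8.5 h and 0.70 and 0.43 at 12 h. It was lowest at 6 h, and only at 12 h did it overlap with 0 h. Against t=0, MPT5 fell by 0.37 at 3 h (adjusted p = 0.0239 by limma), by 0.44 at 6 h (0.0102) and by 0.31 at 7.5 h (0.0174), and over the course its adjusted p was 0.00817 in the F-test. MPT5 was the 1 long intron of 18 called at 3 h, where 9.76% of 287 events were called, 8.36% downwards, and the 1 of 18 called at 6 h, where 10.4% of 299 events were, 7.69% downwards. The single calls rest on few libraries. Without t=0 replicate 2 the adjusted p was 0.192 at 3 h, 0.105 at 6 h and 0.166 at 7.5 h. It was also over the threshold without t=3 replicate 2 (0.0535), t=6 replicate 2 (0.0523), and t=7.5 replicate 1 (0.0533) or 2 (0.0734).

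GCR1 and YJR079W, retained at nearly 1 in growing cells, left that level late. The GCR1 intron had a PSI of 0.98 and 0.96 at 0 h, 0.96 and 0.94 at 3 h, 0.90 and 0.95 at 6 h, 0.85 and 0.91 at 7.5 h and 0.83 and 0.67 at 8.5 h, with no value at 12 h. Its mean was lower at each successive time, and from 6 h on both replicates lay below both of the 0 h replicates. GCR1 fell by 0.22 at 8.5 h (log2 odds -3.05 ± 0.47 SE, adjusted p = 4.70e-04 by limma) and by 0.09 at 7.5 h (adjusted p = 0.0126). The call at 8.5 h held without any 1 library and was lost in a fit of the t=8.5 and t=0 libraries alone (0.0758). That at 7.5 h was lost without t=0 replicate 1 (0.08) or t=7.5 replicate 1 (0.0839).

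YJR079W, an uncharacterised gene with an intron of 705 nt (chromosome X, 580348 to 581052), had a PSI of 1 and 0.99 at 0 h, 0.99 and 0.99 at 3 h, 0.99 and 1 at 6 h, 0.95 and 0.96 at 7.5 h, 0.57 and 0.59 at 8.5 h and 0.99 and 0.99 at 12 h. Outside these last sporulation times it was at 0.99 or 1 in every library of the series, and the 8.5 h pair stood apart from all others. It fell by 0.415 at 8.5 h (log2 odds -5.69 ± 0.33 SE, adjusted p = 1.84e-07 by limma), a call that held under all 10 alternatives, and by 0.04 at 7.5 h (adjusted p = 0.00104). The 8.5 h libraries had the fewest events with a value, and the part of that in this result was not tested. The comparisons at 6, 7.5 and 8.5 h were added after the GCR1 and YJR079W values had been seen.

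At 7.5 h 7 of 17 long introns were called, 3 upwards and 4 downwards, where 31.9% of 210 events were called, 11.4% upwards and 20.5% downwards. At 8.5 h 8 of 17 were called, 4 in each direction, where 40.9% of 176 events were, 17% upwards and 23.9% downwards. HAC1 had a PSI of 0.89 and 0.62 at 0 h, 0.84 and 0.91 at 3 h, 0.95 and 0.98 at 6 h, 1 and 0.97 at 7.5 h, 0.99 and 1 at 8.5 h and 0.99 and 0.96 at 12 h. It was lowest at 0 h, the time with the widest replicates, and from 6 h on both replicates lay above both at 0 h. HAC1 rose by 0.23 at 7.5 h (adjusted p = 0.0294 by limma) and by 0.24 at 8.5 h (0.0138), while at 12 h it was 0.22 higher without passing (0.0696). Without t=0 replicate 2, which had 0.62, the adjusted p was 0.231 at 7.5 h and 0.121 at 8.5 h. It was also over the threshold without t=7.5 replicate 1 (0.191) and t=8.5 replicate 2 (0.0843).

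STO1 had its lowest mean at 8.5 h, where its values overlapped those at 7.5 h. It had 0.34 and 0.41 at 0 h, 0.21 and 0.31 at 3 h, 0.27 and 0.24 at 6 h, 0.24 and 0.18 at 7.5 h, 0.15 and 0.19 at 8.5 h and 0.24 and 0.20 at 12 h. All later values lay below both at 0 h. STO1 fell by 0.205 at 8.5 h (adjusted p = 0.0135 by limma). The call was lost without t=0 replicate 2 (difference -0.17) or t=8.5 replicate 1 (difference -0.185). It was also lost in a fit of the t=8.5 and t=0 libraries alone (adjusted p = 0.0615). Over the 6 times the F-test did not call STO1 (adjusted p = 0.0903).

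GLC7 had 0.09 and 0.11 at 0 h and between 0.04 and 0.08 at all later times, so its later values did not reach the 0 h pair. It fell by 0.05 at 7.5 h (adjusted p = 0.00408 by limma) and by 0.04 at 8.5 h (0.0136). At 3 h and 6 h it was also 0.04 lower, without passing (0.0632 and 0.0641). The call at 8.5 h was lost without t=0 replicate 2 (0.0869) or t=8.5 replicate 1 (0.0608) or 2 (0.0641).

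At 12 h 6 of 16 long introns had risen against t=0 and none had fallen, by limma's moderated test, where 27% of 267 events were called, 19.1% upwards. The median difference was 0.045 over the long introns, 0.10 over 62 short ones, of which 26 rose, and 0.01 over all events tested. At 0 h the median of the means was 0.7225 for long introns and 0.28 for short ones with both values. The long introns thus had less room to rise. UBC13 had a PSI of 0.32 and 0.33 at 0 h, 0.29 and 0.35 at 3 h, 0.25 and 0.26 at 6 h, 0.43 and 0.40 at 7.5 h, 0.58 and 0.36 at 8.5 h and 0.61 and 0.52 at 12 h. It was lowest at 6 h and highest at 12 h, with both 12 h values above both at 0 h. UBC13 rose by 0.24 at 12 h (log2 odds 1.40 ± 0.35 SE, adjusted p = 0.0108), a call narrowly lost without t=0 replicate 1 (0.052) or 2 (0.0518) and without t=12 replicate 1 (0.0862).

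Of the 5 subtelomeric introns, 3 were called at 12 h and were less retained at 0 h than later: YEL076C-A and the near-identical YJL225C and YIL177C. YEL076C-A had 0.73 and 0.64 at 0 h, 0.81 and 0.86 at 3 h, 0.82 and 0.91 at 6 h, 0.83 and 0.96 at 7.5 h, 0.98 and 0.92 at 8.5 h and 0.98 and 0.98 at 12 h. YJL225C had 0.88 and 0.86 at 0 h, 0.92 and 0.96 at 3 h, 0.96 and 0.97 at 6 h, 0.94 and 0.98 at 7.5 h, 0.99 and 0.97 at 8.5 h and 0.99 and 0.99 at 12 h. In both introns every later value lay above both at 0 h. At 12 h YEL076C-A was 0.295 higher (adjusted p = 0.00327 by limma), YJL225C 0.12 higher (0.00327) and YIL177C 0.115 higher (0.00361), and all 3 calls held under all 10 alternatives. At 8.5 h these 3 had also risen, by 0.265 (0.00667), 0.11 (0.00505) and 0.105 (0.00598), and without t=8.5 replicate 1 none was called (0.0718, 0.0547 and 0.0605). YEL076C-A also missed the threshold at 8.5 h without t=0 replicate 2 (0.054).

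At 7.5 h YEL076C-A rose by 0.21 (adjusted p = 0.0494 by limma) and YJL225C by 0.09 (0.0346). Without t=7.5 replicate 2 the adjusted p was 0.367 and 0.265, without t=0 replicate 1 it was 0.08 for both, and without t=0 replicate 2 it was 0.218 and 0.143. YLR464W had 0.81 and 0.89 at 12 h, against 0.57 and 0.50 at 0 h, a difference of 0.315 that just missed (0.0532), while it passed with an offset of 0.05 (0.0366), with robust moderation (0.0431) and with PSI in place of log odds (0.0149). YHL050C was at 0.99 or 1 in all 12 libraries.

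The last 2 calls at 12 h were small. The chromosome IV intron had 0.99 and 0.99 at 12 h, against 0.93 and 0.97 at 0 h (difference 0.04, adjusted p = 0.0269 by limma). YBR090C had 1 and 0.99 at 12 h, against 0.97 and 0.96 at 0 h (difference 0.03, adjusted p = 0.0296). Neither pair overlapped, at steps of a few units of the second decimal. The first was lost without t=0 replicate 1 (0.147) or t=12 replicate 1 (0.101) or 2 (0.0933), and the second without t=0 replicate 1 (0.0717) or 2 (0.127) or t=12 replicate 1 (0.2).

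ECM33 varied without a call, between 0.57 and 0.88 over the 12 libraries, with its highest pair of 0.77 and 0.88 at 7.5 h. PSP2 stayed between 0.06 and 0.15 and MRK1 between 0.09 and 0.27, and neither was called at any time tested. YBR219C had 0.88 and 0.79 at 0 h and a value in only 1 library at 7.5 h (0.66) and at 8.5 h (0.47), where it was not tested. The chromosome XV intron had no value at 0 h and 3 h and lay between 0.81 and 0.96 in the libraries from 6 h on that had one.

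**Figure D4:**
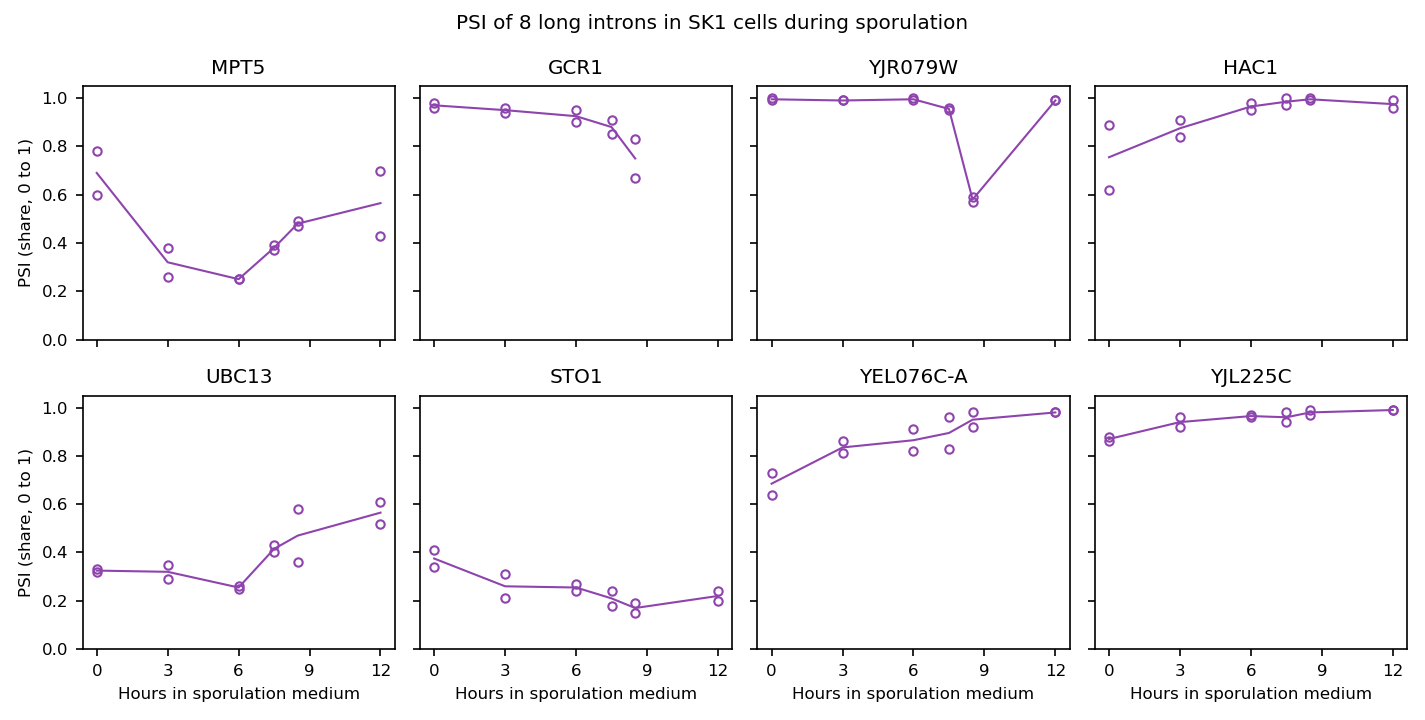
PSI (vertical, 0 to 1) of 8 long introns against hours in sporulation medium (horizontal, 0 to 12 h), with each of 2 replicates as a circle and the mean as a line, and no GCR1 value at 12 h. MPT5 is lowest at 6 h (0.25 and 0.25), YJR079W is lowest at 8.5 h (0.57 and 0.59), and YEL076C-A and YJL225C are lowest at 0 h.

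Branch points of the long introns were seldom found by Branch-seq. An annotated branch point had a value in 5 of the 17 genes (29.4%), against 134 of 151 genes of short introns (88.7%) and 45 of 86 ribosomal protein genes with long introns (52.3%). Sites were matched by gene name alone, since Branch-seq coordinates are on another build. The median was 0.459 CPM over the 5 sites, against 199 CPM over the 140 sites of short introns and 0.459 CPM over the 45 of long ribosomal protein introns. The lowest value in each class was 0.0834 CPM, so a gene without a site says only that none was listed. Branch-seq gave 1 pooled value per site with no replicate, and no test was made.

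GCR1 had the highest value at 28.9 CPM, rank 121 in the list of annotated sites, while its PSI was 0.98 to 1 in all libraries of dbr1_null, upf1_null, WT, dbr1, +rap and -rap cells. UBC13 had 0.709 CPM, YBR090C 0.459 CPM, GLC7 0.292 CPM and STO1 0.0834 CPM. MPT5 had no annotated site but 6.01 CPM at a site listed as unannotated, rank 35 there. All 5 annotated sites, GCR1 included, lay below that list's median of 113 CPM, whereas MPT5 lay above the 0.626 CPM median of the unannotated list. HAC1, which forms no lariat, was not listed, but neither were most of the other genes.

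Of 58 Lariat-seq sites, 39 matched an annotated intron of the table by its 5′ splice site, and 1 of these was a long intron described here. In PSP2 the branch point lay at position 236789 of chromosome XIII, 197 nt from the 5′ splice site and 164 nt from the 3′ splice site, with 75 junction reads. Its distance to the 3′ splice site was the longest of the 39. The other 38 lay 11 to 139 nt from theirs, with a median of 33 nt and a median of 16 junction reads.

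**Figure D5:**
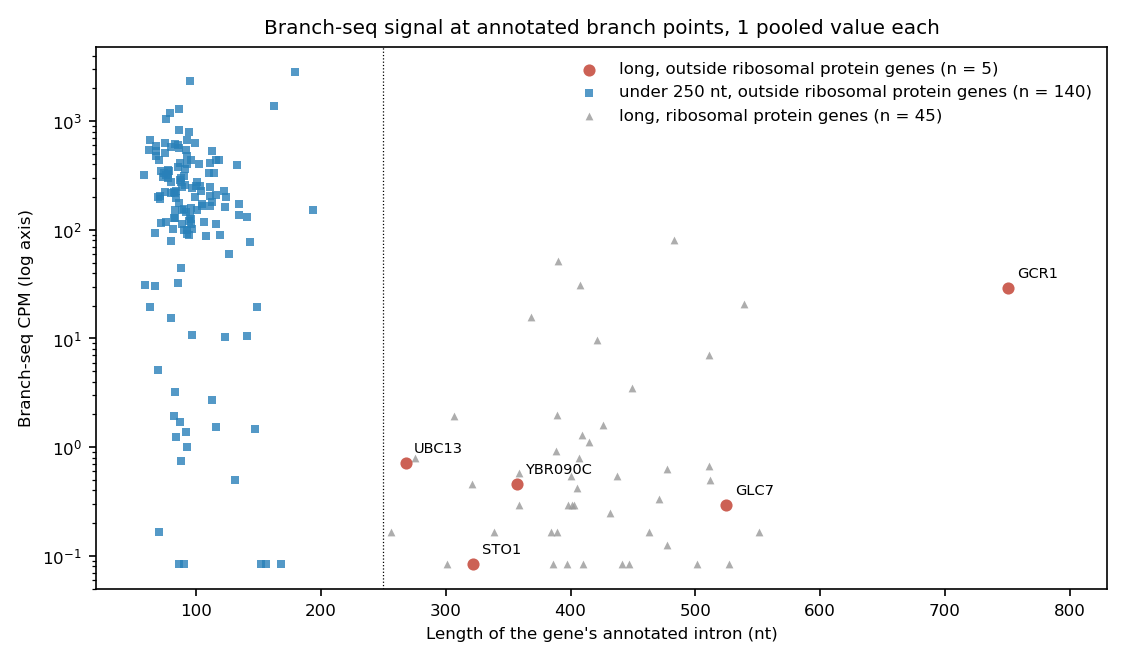
Branch-seq CPM at annotated branch points (vertical, log axis), 1 pooled value each, against the length in nt of the gene's annotated intron (horizontal), for long introns outside ribosomal protein genes (red circles, n = 5), introns under 250 nt outside ribosomal protein genes (blue squares, n = 140) and long ribosomal protein introns (grey triangles, n = 45). GCR1 at 28.9 CPM stands apart from the other 4 red circles, which lie between 0.0834 and 0.709 CPM.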

How the data were processed

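Per the submitters' processing notes, TruSeq reads were aligned with TopHat2 2.0.0 and Ribo-Zero reads with TopHat2 to sacCer3, Branch-seq reads with Bowtie 1.0.0 to sacCer2 and Lariat-seq reads with Bowtie 1.0.0 to sacCer3. For RNA-seq the authors deposited PSI, a fraction for each event, for Branch-seq CPM in 1 column that pools 3 fractions, and for Lariat-seq junction read counts, summed here per site. The PSI table gives no read counts, so no counting intervals were computed, and it does not measure DBR1 or UPF1, so the deletions could not be checked.

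In limma 3.58.1 (R 4.3.3), group means of log2 odds of PSI (offset 0.01) were fitted to the libraries of each kit together. Tests covered all events with both values in both groups, two-sided, with Benjamini-Hochberg adjustment at 0.05. An exact permutation test of 2 against 2 libraries cannot go below p = 0.333. The design calls the replicates biological, without saying what they share. The procedure was tested on simulated data.

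Named introns were every one called in a comparison, the 3 with the largest difference in each, the 2 highest and lowest in WT and -rap, those at the length limits, that with the highest Branch-seq value, and GCR1, HAC1, GLC7, MPT5 and ECM33 throughout. The introns, lists and tests were chosen with earlier results of these data known. Alternatives were an offset of 0.05, a fit of the compared libraries alone, robust moderation, PSI without log odds, annotated introns alone, incomplete groups, a replicate block, each library left out, and length limits of 200 and 300 nt. Genes were matched by coordinates to the RefSeq annotation of R64, and 17 of the 19 introns lay in one. Sequences were not used here.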

Additional observations from a re-analysis of the deposited data

How the results depend on the processing

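Of 267 recomputed counts, medians and Branch-seq values, 229 stayed within the limits set for them and 38 did not. The cause of each change was not tested. In upf1_null against WT, 3 calls became 0 in a fit of the compared libraries alone, 0 with PSI in place of log odds, 0 with the replicate block, 1 with robust moderation and 0 to 2 with a library left out. In dbr1 against -rap, 12 became 5 with PSI in place of log odds and 8 to 11 with a library left out. In a fit of the compared libraries alone the count became 2 in upf1_null against dbr1_null (from 0), 1 in sk1 against -rap (from 0), 1 in t=0 against sk1 (from 3), 0 at 3 h (from 1), 0 at 6 h (from 1), 0 at 7.5 h (from 7), 2 at 8.5 h (from 8) and 3 at 12 h (from 6). With an offset of 0.05 it became 2 at 3 h and 2 at 6 h, and with PSI in place of log odds 1 in sk1 against -rap and 2 at 6 h. With a library left out it was 0 to 1 in dbr1_null against WT, 0 to 1 in sk1 against -rap, 1 to 3 in t=0 against sk1, 0 to 1 at 3 h, 0 to 1 at 6 h, 4 to 9 at 7.5 h, 3 to 9 at 8.5 h, 3 to 5 at 12 h and 7 to 11 in the F-test. A length limit of 200 nt gave 1 call in +rap against -rap, and one of 300 nt gave 3 at 12 h and 5 in the F-test. With the 300 nt limit the median difference was -0.04 at 7.5 h and -0.04 at 8.5 h, against 0.005 and 0.01, so both changed sign. Medians near 0 also crossed it with a library left out: -0.01 to 0.0075 in sk1 against -rap, -0.005 to 0.005 at 3 h, -0.0175 to 0.0025 at 6 h and -0.015 to 0.01 at 7.5 h. The median Branch-seq CPM per gene, 0.584 over 6 genes, was 0.709 at 200 nt and 0.459 at 300 nt.

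Replicate numbers in the labels are not said to pair cultures, and with 2 pairs per comparison they were treated as sharing only a number. Outside upf1_null against WT, the replicate block left the counts within 1 of those reported: 12 in dbr1 against -rap, 3 in t=0 against sk1, 6 at 7.5 h (without YEL076C-A, adjusted p = 0.061 by limma), 8 at 8.5 h, 7 at 12 h (with YLR464W, 0.0409) and 9 in the F-test. In dbr1 against -rap, sk1 against -rap and t=6 against t=0, where same-numbered libraries deviated in opposite directions (correlations -0.132, -0.383 and -0.345), a crossed block chosen after seeing the data gave 12, 0 and 1 calls. With 2 libraries per group and unknown read depth, small differences near 0 or 1 are limited by the 2 decimals of PSI.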
